A study of Mus musculus with 3 samples.

Results

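The cells described here are cortical neurons that carried transcripts of Cbln4 together with Etv1 or Adra2a. They were chosen by their measured counts of unique molecular identifiers (UMIs) in all 3 matrices: more than 700 genes, under 10% mitochondrial UMIs, at least 1 UMI of Cbln4, at least 1 UMI of Etv1 or Adra2a, and 0 UMIs of Nos1, Pdyn and Myh8. The rule found 67 cells among 9433 cells that passed the filters on genes and mitochondrial UMIs, and 12324 cells in all. They numbered 29 in the E16.5 library, 24 in that of P1 and 14 in that of P5. The label proposed for them was Martinotti neurons. The study's Martinotti genes were split in direction in these cells, with some higher and some lower than in the reference, so they are called Cbln4 Etv1/Adra2a cells here.

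Cells were sorted as GFP+ from the neocortex of Sst-Cre;RCE mice at embryonic day 16.5 (E16.5) and at postnatal days 1 and 5 (P1 and P5), and profiled with the 10x Genomics 3-prime assay, which counts UMIs per gene and cell. All animals of all stages carried the same Cre and reporter alleles, and no other treatment was given. In this cross GFP marks every cell that has ever transcribed the Cre, so cells without Sst transcripts can be in the sort. Each stage was 1 library made from pooled animals, with 6 animals in the E16.5 pool and 3 in each postnatal pool. Stage and library can therefore not be told apart, cells are not replicates, and no test was made. Levels are UMIs summed over cells and given as CPM, the standard scaling to an equal total for each group, with exact Poisson 95% intervals, and shares of cells have exact Clopper-Pearson 95% intervals. Both cover counting error only. Ratios are on the log2 scale with 1 CPM added to both levels.

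Cbln4 encodes a secreted cerebellin, a protein that bridges presynaptic neurexins to partners across the synaptic cleft. Etv1 encodes a transcription factor of the ETS family, which acts downstream of growth factor signalling through MAP kinases, and Adra2a encodes the alpha-2A adrenergic receptor, an inhibitory receptor for noradrenaline. Martinotti cells are somatostatin interneurons whose axons climb to layer 1 of the cortex and inhibit the distal dendrites of pyramidal cells.

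The gene that every one of these cells had to carry is Cbln4 (ENSMUSG00000067578, 2:172036233-172043466, minus strand in GRCm38). RefSeq places its start next to the base where the GENCODE gene model ends, so the sequence before it lies outside the gene. The 250 bases before the start (chr2:172043467-172043716, GRCm38.p6, minus strand, from RefSeq) are shown because they are the proximal promoter of the gene that chooses the cells. Capitals mark GGAA, the core that ETS factors recognize, on either strand (TTCC is its reverse complement).
Cbln4: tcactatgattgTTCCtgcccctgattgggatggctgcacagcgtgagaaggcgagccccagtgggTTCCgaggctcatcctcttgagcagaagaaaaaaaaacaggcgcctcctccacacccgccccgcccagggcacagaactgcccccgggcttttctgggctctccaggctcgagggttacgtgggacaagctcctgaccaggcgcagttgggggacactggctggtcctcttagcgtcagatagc
The window held 2 matches of GGAA and 0 matches of CCGGAA. Among 32851 promoters of 27025 genes, 93.4% of windows of the same length held GGAA, with a median of 3 matches, and 12.0% held CCGGAA. A match to these letters is common and is no evidence of binding. The other rule genes lie at 12:38779380-38870484 on the plus strand (Etv1, ENSMUSG00000004151) and 19:54044151-54048982 on the plus strand (Adra2a, ENSMUSG00000033717).

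Before the results, several facts on the libraries bear on them. The 3 libraries held 4478, 4440 and 3406 cells and 25638779, 15654107 and 13429055 UMIs (E16.5, P1, P5). In all, 10 cell barcodes occurred in 2 libraries, and 1 of them belonged to a Cbln4 Etv1/Adra2a cell. The comparison group, called the reference, was the other filtered cells of the same library with 0 UMIs of Nos1 and Cbln4 (3796, 1983 and 2368 cells). Cells with Myh8 or Pdyn were not left out of it. Filtered cells with Myh8 and no Nos1 or Pdyn numbered 2, 29 and 141, and those with Pdyn and no Nos1 or Myh8 10, 27 and 390. The make-up of the reference thus differed by stage, and its part in the ratios was not tested. Cells of the rule were deeper than the reference at 2 stages: the median was 11417 against 5513 UMIs per cell at E16.5, 9158 against 3113 at P1, and 4276.5 against 4186.5 at P5. The median mitochondrial share was 4.35% against 4.06%, 6.42% against 6.16%, and 4.67% against 4.43%. Ratios were therefore also taken against reference cells weighted over 5 bins of UMIs per cell to the UMIs of the cells of the rule, called the depth-matched reference. The outer bins were open-ended. The lowest held 3145, 1416 and 785 reference cells, and depth within a bin was not matched.

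**Figure D1:**
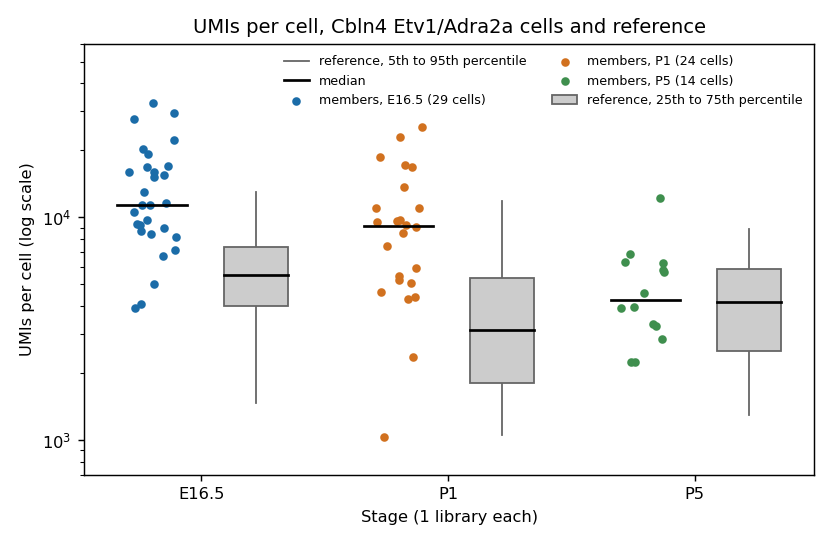
UMIs per cell on a log axis for each Cbln4 Etv1/Adra2a cell (coloured points) and for reference cells of the same library (grey boxes from the 25th to the 75th percentile, lines from the 5th to the 95th), with medians as black bars. The medians of the points lie above the boxes' medians at E16.5 (11417 against 5513) and P1 (9158 against 3113) and close to it at P5 (4276.5 against 4186.5).

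The values that chose the cells were low. Cbln4 summed to 41 UMIs over the 29 cells of E16.5, to 42 over the 24 of P1 and to 19 over the 14 of P5, with a highest value of 3, 5 and 4 UMIs in a cell. Exactly 1 Cbln4 UMI was found in 21, 11 and 12 cells, and these stand just inside the rule. Etv1 held 89, 63 and 17 UMIs in 25, 21 and 12 cells, with up to 12, 13 and 3 in a cell. Adra2a held 20, 11 and 4 UMIs in 13, 6 and 3 cells. Just outside the rule were 9 cells that met all but the exclusion of Nos1, Pdyn and Myh8, of which 5 had a Nos1 UMI and 4 a Pdyn UMI without Nos1. Of these 9 cells, 4 were left out by a single UMI. The cells entered mostly through Etv1: Etv1 alone admitted 16, 18 and 11 cells, Adra2a alone 4, 3 and 2, and both genes 9, 3 and 1.

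Of filtered cells they made up 0.734% in the E16.5 library, with a 95% interval from 0.492% to 1.05%. In the P1 library the share was 0.960% (0.616 to 1.42), and in the P5 library 0.470% (0.257 to 0.787). With each cell thinned to 2000 UMIs, which left out 337, 673 and 537 shallower cells, the shares fell to 4 of 3615, 6 of 1828 and 3 of 2443 cells (0.111%, 0.328% and 0.123%). The intervals of the stages overlap at either depth, which does not decide whether the shares differ, and a difference was not tested.

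Etv1 was found in a larger share of cells with Cbln4 than without it at full depth. Among cells with 0 UMIs of Nos1, Pdyn and Myh8, an Etv1 UMI was found in 25 of 87 cells with Cbln4 at E16.5 (28.7%) against 16.2% of the cells without, in 21 of 80 at P1 (26.2%) against 8.34%, and in 12 of 46 at P5 (26.1%) against 12.7%. Adra2a was found in 14.9% against 3.20%, 7.50% against 1.61%, and 6.52% against 3.85%. After thinning, Adra2a was found in 1 of 33, 1 of 41 and 0 of 22 cells with Cbln4 against 0.929%, 1.02% and 1.88%, all within the intervals of the first shares, so its excess was not detectable at equal depth either. Thinned likewise, Etv1 was found in 3 of 33, 5 of 41 and 3 of 22 cells with Cbln4 against 7.86%, 5.77% and 6.67% of the others. The intervals of these shares (1.92 to 24.3%, 4.08 to 26.2% and 2.91 to 34.9%) hold the values of the other cells at E16.5, P1 and P5, so at equal depth no joint presence of Cbln4 and Etv1 beyond the rest of the library was detectable.

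Transcripts that float free in the droplets can give UMIs in cells that do not express a gene. As a check, Cbln4 was counted in cells with 2 or more UMIs of excitatory neuron markers, which had a median of 11905, 5368 and 3858.5 UMIs. None of 39, 35 and 24 such cells held a Cbln4 UMI, which at a limit of 3 counts allows shares of cells with a UMI of up to 7.69%, 8.57% and 12.5%. An Etv1 UMI was found in 2 of 39, 4 of 35 and 5 of 24 of them (5.13%, 11.4% and 20.8%). Adra2a was found in 2, 2 and 1 (5.13%, 5.71% and 4.17%). Whether these UMIs came from free transcripts was not tested. In cells with 3 or more Nos1 UMIs (median 9544, 3768 and 3120 UMIs), Cbln4 was found in 5 of 16, 25 of 275 and 6 of 437 cells and Etv1 in 0 of 16, 7 of 275 and 4 of 437. Adra2a was found there in 0 of 16, 6 of 275 and 1 of 437. The Etv1 shares in Nos1 cells were 2.55% at P1 and 0.915% at P5, under the 26.2% and 26.1% of Cbln4 cells, and the 0 of 16 at E16.5 allows up to 18.8% by the same limit.

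The identity of the cells as Sst-lineage GABAergic neurons was read from genes outside the rule. Sst, the gene of the peptide somatostatin, was found in all 29 E16.5 cells, all 24 P1 cells and 9 of the 14 P5 cells. Its UMIs per cell ranged from 25 to 256 with a median of 97 at E16.5, from 1 to 69 with a median of 16.5 at P1, and from 0 to 35 with a median of 1 at P5. A UMI of Gad1 or Gad2, the enzymes of GABA synthesis, was found in 29, 24 and 11 cells, and one of Lhx6, the transcription factor of interneurons born in the medial ganglionic eminence, in 27, 23 and 11. The 5 cells without Sst, all from P5, held 2249 to 3961 UMIs, and all 5 had a UMI of Gad1, Gad2 or Lhx6.

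At E16.5 several summed levels differed between cells admitted by Etv1 alone and through Adra2a, by intervals that leave out the spread between cells. Single cells spread widely. Sst made up 162 of 32459 and 114 of 8166 UMIs in 2 cells with Etv1 alone. It made up 74 of 9766 and 116 of 9267 in 2 with Adra2a alone. A difference between the sets beyond this spread was not tested. There Sst was at 7229 CPM (6864 to 7609) in the 16 cells with Etv1 alone, 9810 CPM (8775 to 10933) in the 4 cells with Adra2a alone and 8097 CPM (7662 to 8551) in the 9 cells with both, and these intervals do not overlap, while each set stood above the 2717 CPM of the reference. Npy at E16.5 was lowest with Etv1 alone, at 2357 CPM (2151 to 2578), against 3870 CPM (3231 to 4598) with Adra2a alone and 3234 CPM (2961 to 3525) with both. Epha5 was at 2263 CPM (2061 to 2480), 4410 CPM (3726 to 5183) and 1504 CPM (1320 to 1707). At P1 Sst was at 2295 CPM (2062 to 2547), 2174 CPM (1629 to 2844) and 2153 CPM (1797 to 2560), with intervals that overlap. Npy at P1 was highest in the cells with both genes, at 1383 CPM (1204 to 1582) with Etv1 alone, 1108 CPM (730 to 1612) with Adra2a alone and 2843 CPM (2431 to 3306) in the 3 cells with both. Of the 169 Npy UMIs of those 3 cells, 118 came from 1 cell. At P5 only 3 cells had Adra2a, too few for levels.

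Markers of most other cell classes were at or near 0. Over 9 excitatory neuron markers 1, 0 and 0 cells had a UMI, over 6 astroglia and radial glia markers 1, 0 and 0, over 7 vascular markers 1, 1 and 0, over 5 cycling cell markers 0, 2 and 0, and over 6 microglia and 5 red blood cell markers 0 cells. The 6 markers of interneurons from the caudal ganglionic eminence were not near 0. They gave a UMI in 17 of 29, 13 of 24 and 6 of 14 cells, against 35.2%, 33.4% and 45.2% of reference cells. They gave 3 or more UMIs in 0 of 29, 4 of 24 and 2 of 14 cells, against 8.80%, 11.5% and 13.9% of reference cells. The 6 oligodendrocyte lineage markers gave a UMI in 13, 7 and 3 cells and 3 or more UMIs in 1, 1 and 0, and 15.7%, 12.9% and 15.4% of reference cells had a UMI of them. The part of these transcripts in the results was not tested. Of the 5 markers of Meis2-type inhibitory neurons, a UMI was found in 9 of 29, 8 of 24 and 3 of 14 cells, against 18.2%, 17.5% and 7.01% of reference cells, and 3 or more in 0. Meis2 itself, which marks a separate inhibitory population labelled in this cross, had 0 UMIs in the cells of all 3 libraries. Chodl, a defining gene of somatostatin long-range projection neurons, had 1 UMI over all 67 cells together. The 4 long-range projection neuron markers as a set gave 3 or more UMIs in 28, 23 and 9 cells, against 39.9%, 37.8% and 27.9% of reference cells. Npy, which the study also used to identify those neurons, is in this set and was found in 29, 23 and 11 cells. A UMI of the whole set was found in the same numbers of cells. The highest cell held 101, 118 and 23 UMIs by Npy alone and by the set, so the set mostly reads Npy.

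**Figure D2:**
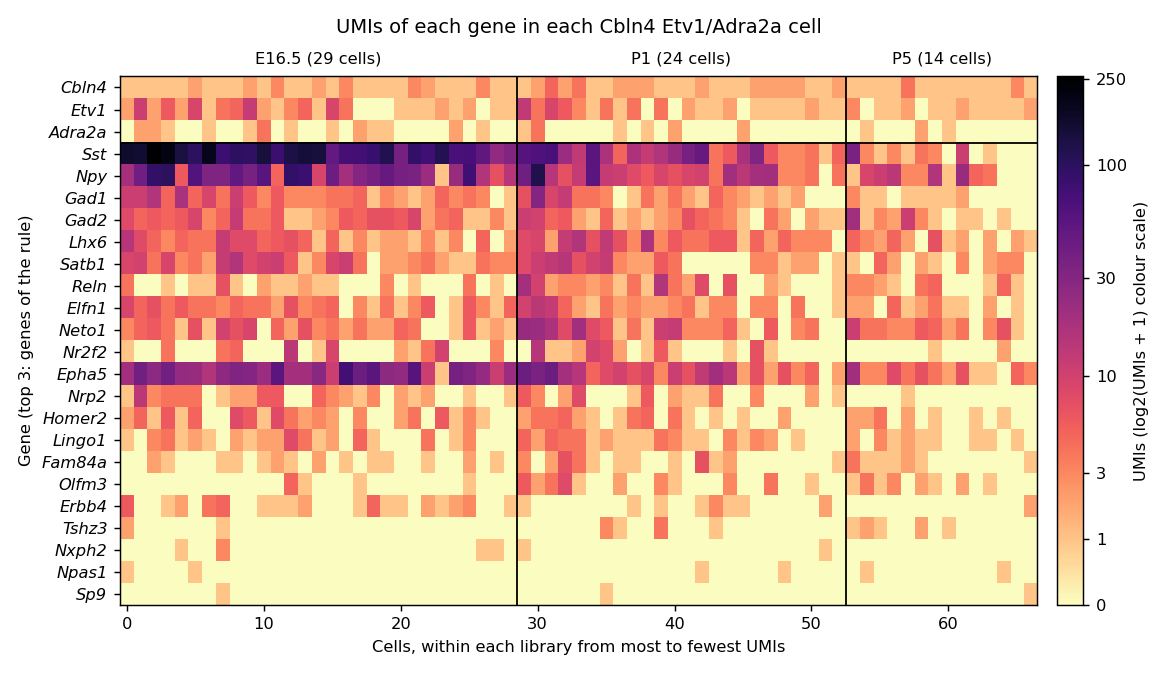
UMIs of 24 genes (rows) in each of the 67 Cbln4 Etv1/Adra2a cells (columns), split by library and ordered within it from most to fewest UMIs, on a log2(UMIs + 1) colour scale, with the 3 rule genes above the line. Sst and Npy fill nearly all columns at E16.5 and P1 and thin out at P5, and the rows of Npas1 and Sp9 are almost empty in all 3 libraries.

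Across genes, few were past 2-fold against the reference, and depth matching cut their number at E16.5 but hardly changed it at P1 and P5. Genes with at least 10 UMIs on average over both groups were compared (5964, 4661 and 1385 by stage), with rule and mitochondrial genes left out. At E16.5, 187 genes were higher (3.14%) and 242 lower (4.06%). At P1, 102 were higher (2.19%) and 153 lower (3.28%), and at P5, 28 were higher (2.02%) and 34 lower (2.45%). Against the depth-matched reference the numbers were 53 higher and 102 lower at E16.5, 100 and 143 at P1, and 27 and 35 at P5. At P5 median-of-ratios scaling gave 17 higher and 43 lower in place of 28 and 34. In all 3 libraries together, 0 of 1369 genes were higher (0.0%) and 1 was lower (0.073%): St6galnac5, a sialyltransferase of gangliosides. St6galnac5 stood at 15.2 CPM (interval 5.56 to 33.0) against 80.3 CPM in the reference at E16.5, 67.1 (38.3 to 109) against 269 at P1, and 71.9 (23.4 to 168) against 375 at P5. The log2 ratios were -2.33, -1.99 and -2.37.

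E16.5 and P1 shared more. Of 4435 genes compared in both, 35 were higher in both (0.789%) and 39 lower in both (0.879%). Against the depth-matched reference 12 of the 35 and 20 of the 39 stayed past 2-fold in both. The 12 were Nrp2, Prkcq, Ap1s2, Nlgn1, Col25a1, Wwp1, Ptpru, Homer2, Utrn, Pnoc, Car10 and Fam84a. For Col25a1 the P1 ratio turned to -0.06 in cells with at least 2 Cbln4 UMIs, and without cells above the 95th percentile of UMIs the P1 ratios of Prkcq, Nlgn1, Col25a1, Ap1s2, Utrn and Wwp1 were under 2-fold. The 20 included Kcnk2, Nxph2, Sp9, Gucy1a1, St6galnac5, Nfib, Sema3a, Tmem132b, Npas1, Tshz3, Arnt2, Sh3rf3, Kctd12, Dock4, Npas3, Dact1, Nrip1, Ptchd4 and Tmem178. Most of these genes are too low for the 1385 genes compared at P5: 15 of the 35 were among them, 11 with the same sign and 0 past 2-fold, and 10 of the 39, 6 with the same sign and 1 past 2-fold.

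Pnoc, the gene of the opioid-like peptide nociceptin, had the largest ratio of the 12 at E16.5, and was singled out after its values were seen. Its level was 457 CPM (393 to 529) at E16.5 against 47.1 in the reference, 147 CPM (102 to 204) against 39.6 at P1, and 43.2 CPM (8.90 to 126) from 3 UMIs against 81.0 at P5. It was found in 23 of 29, 14 of 24 and 3 of 14 cells, and the highest cell held 17 UMIs at E16.5 and 4 at P1, so the level was spread over cells. The log2 ratio was 3.25 at E16.5 and 1.87 at P1, and 2.53 and 2.01 against the depth-matched reference.

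The leading higher genes over all 3 libraries were taken by their lowest ratio, among genes with at least 20 CPM in the cells of the rule in each library. The 15 genes were Fam84a, Hs3st4, Olfm3, Lhfp, Homer2, Prkcq, Mir670hg, Lrfn2, Lingo1, Pcdh11x, Nlgn1, Mthfd2, Fam19a5, Rgs8 and Tmeff2. Some changed when the deepest cells were left out: without cells above the 95th percentile of UMIs the ratio of Mthfd2 at E16.5 turned from 1.03 to -3.61 and that of Lhfp at P1 from 1.55 to -0.02. Against the depth-matched reference Hs3st4, Lhfp, Mir670hg, Pcdh11x, Mthfd2 and Tmeff2 also fell under 2-fold at E16.5, with ratios of 0.78, 0.95, 0.83, 0.74, 0.71 and 0.995. Fam84a was at 45.5 CPM (27.0 to 71.9) against 10.5 at E16.5, 130 CPM (88.3 to 184) against 26.1 at P1, and 158 CPM (79.0 to 283) against 54.9 at P5. Homer2, a scaffold that ties metabotropic glutamate receptors to internal calcium stores, was at 187 CPM (147 to 235) against 38.8, 155 CPM (109 to 214) against 61.1, and 187 CPM (99.6 to 320) against 75.1. For both genes the interval lay above the reference level in all 3 libraries. Both were picked by these ratios and by a minimum level in the cells, so this is no separate support.

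Olfm3, a secreted olfactomedin that binds AMPA receptors, was at 20.2 CPM (8.73 to 39.8) against 6.86 at E16.5, 147 CPM (102 to 204) against 38.8 at P1, and 216 CPM (121 to 356) against 41.2 at P5. Olfm3 was found in 4 of 29, 11 of 24 and 8 of 14 cells, so at E16.5 most cells lacked it. Prkcq, a protein kinase C, was at 101 CPM (72.2 to 138) against 34.1, 75.5 CPM (44.7 to 119) against 31.4, and 71.9 CPM (23.4 to 168) from 5 UMIs against 17.8. Lingo1, a membrane protein that limits axon growth and myelination, was at 121 CPM (89.4 to 161) against 46.5, 189 CPM (138 to 252) against 47.3, and 187 CPM (99.6 to 320) against 84.6. Depth matching left the E16.5 log2 ratio of Prkcq at 1.47 (from 1.54) and that of Fam84a at 1.58 (from 2.01), and brought that of Homer2 to 1.22 (from 2.24), of Olfm3 to 0.78 (from 1.43) and of Lingo1 to 0.59 (from 1.37).

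The leading lower genes were Edil3, Gfra2, Npas3, St6galnac5, Sulf2, Gucy1a1, Npas1, Nxph2, Arpp21 and Sp9. They were taken by their highest ratio, among genes with at least 20 CPM in the reference of each library. Their place under the reference is thus no separate support. Sp9, a transcription factor of ganglionic eminence progenitors and young interneurons, had 1 UMI in each library: 2.53 CPM (0.0640 to 14.1) against 169 at E16.5, 4.19 CPM (0.106 to 23.4) against 84.6 at P1, and 14.4 CPM (0.364 to 80.2) against 43.4 at P5. The upper bounds stay under the reference at E16.5 and P1 and not at P5. Npas1, a transcription factor of interneurons that is on the study's Martinotti list, had 2 UMIs in each library: 5.05 CPM (0.612 to 18.3) against 120, 8.39 CPM (1.02 to 30.3) against 95.04, and 28.8 CPM (3.48 to 104) against 182. Here the upper bound was under the reference level at E16.5, P1 and P5. Npas3, a relative of Npas1, was at 50.5 CPM (30.9 to 78.1) against 189.5, 58.7 CPM (32.1 to 98.5) against 227, and 43.2 CPM (8.90 to 126) from 3 UMIs against 220.

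**Figure D3:**
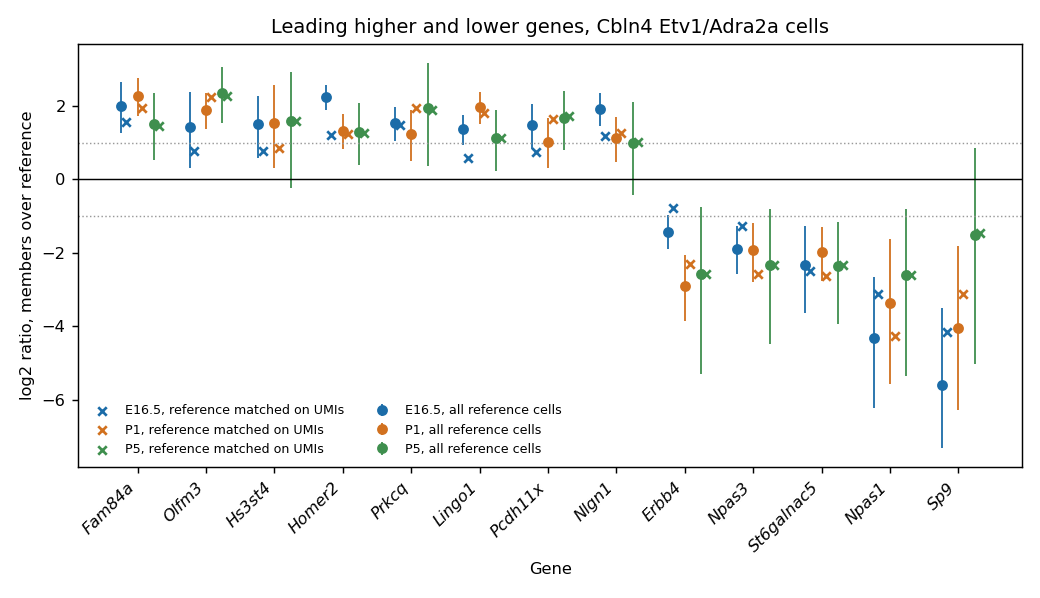
log2 ratio of the level in Cbln4 Etv1/Adra2a cells over the reference for 8 genes of the leading higher set, 4 of the leading lower set and Erbb4, by stage (circles), with 95% counting intervals of the cells' own UMIs, and the ratio against the depth-matched reference (crosses). Dotted lines mark 2-fold. At E16.5 the crosses of Homer2, Olfm3 and Lingo1 lie nearer to 0 (1.22, 0.78 and 0.59) than the circles (2.24, 1.43 and 1.37).

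Erbb4, the neuregulin receptor of cortical interneurons, was lower in all 3 libraries, at 101 CPM (72.2 to 138) against 273 at E16.5, 46.1 CPM (23.0 to 82.5) against 350 at P1, and 28.8 CPM (3.48 to 104) from 2 UMIs against 177 at P5. Its log2 ratio at E16.5 went from -1.42 to -0.77 against the depth-matched reference, under 2-fold. Nrp2, a semaphorin receptor of migrating interneurons, was higher at 172 CPM (133 to 218) against 40.5 at E16.5 and 168 CPM (120 to 228) against 29.0 at P1, and had 1 UMI at P5. Epha5, an ephrin receptor, was at 2138 CPM (1996 to 2287) against 1249, 1203 CPM (1068 to 1351) against 598, and 978 CPM (760 to 1240) against 580. The cells' interval for Epha5 lay above the reference in each library, with log2 ratios of 0.78, 1.01 and 0.75.

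Gene lists were read by their counts and medians. The median log2 ratio of all genes compared was -0.02, 0.01 and 0.10. Of all genes compared, 3.14%, 2.19% and 2.02% were past 2-fold higher and 4.06%, 3.28% and 2.45% lower, and the counts of each list stand beside these shares. The study chose its lists for Martinotti cells, non-Martinotti interneurons, long-range projection neurons and maturation on these same libraries, so they are not independent evidence. Of the Martinotti genes, 5 of 25 compared were past 2-fold higher and 3 lower at E16.5, 5 and 4 of 28 at P1, and 1 and 3 of 22 at P5, with medians of 0.13, 0.25 and -0.06. Against the depth-matched reference 1 was higher and 4 lower of 26 at E16.5 and 6 and 7 of 28 at P1, with medians of 0.06 and 0.18. Those past 2-fold higher included Tmeff2 and Ildr2 at E16.5 and P1 and Kirrel3, Pantr1 and Olfm3 at P1, and those lower included Npas1 at E16.5 and P1 and Satb1 at P5. After matching, Tmeff2 and Ildr2 were under 2-fold at E16.5, at 0.995 and 0.92.

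Among classical genes of the type, Reln, the secreted glycoprotein reelin, was at 80.9 CPM (55.3 to 114) against 144 at E16.5, 373 CPM (300 to 459) against 328 at P1, and 360 CPM (233 to 531) against 480 at P5. Elfn1, a postsynaptic-targeting adhesion protein of somatostatin interneurons, was at 278 CPM (228 to 335) against 166, 344 CPM (273 to 427) against 250, and 302 CPM (187 to 462) against 306. Grin3a, an NMDA receptor subunit, was at 202 CPM (160 to 252) against 132, 432 CPM (353 to 524) against 753, and 1640 CPM (1353 to 1970) against 1500. None of Reln, Elfn1 and Grin3a kept one side of the reference over the 3 stages, and none passed 2-fold, but Grin3a at P1 did after matching, with a log2 ratio of -1.31 in place of -0.80.

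The non-Martinotti genes were lower than in the reference at the first 2 stages. Of 30 compared at E16.5, 13 were past 2-fold lower and 2 higher, of 29 at P1 11 and 1, and of 14 at P5 2 and 1, with medians of -0.82, -0.63 and 0.02. Against the depth-matched reference, 8 were lower at E16.5 and 6 at P1, with medians of -0.53 and -0.22. Against Cbln4 cells without Etv1 and Adra2a, 6 of 30 were lower and 2 higher at E16.5, and 4 and 3 of 28 at P1. The medians there were -0.15 and -0.30. At P1 the medians against Myh8 and Pdyn cells were -0.20 and 0.04, so the lower level was largely shared with these cells. Nfib, a nuclear factor of neuronal differentiation, was at 27.8 CPM (13.9 to 49.7) against 153 at E16.5 and 8.39 CPM (1.02 to 30.3) against 123 at P1. Thsd7a, also on this list, was higher at P5 with 691 CPM (509 to 916) against 186, from 12 of 14 cells.

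Interneuron transcription factors went the same way as that list, with which they share members. Of 43 compared at E16.5, 15 were past 2-fold lower and 2 higher, of 42 at P1 14 and 1, and of 21 at P5 1 and 2, with medians of -0.54, -0.52 and 0.27. Against the depth-matched reference 10 were lower and 0 higher at E16.5 and 8 and 3 at P1. Tshz3, a zinc finger homeobox factor, was at 7.58 CPM (1.56 to 22.2) from 3 UMIs against 149 at E16.5, 37.7 CPM (17.3 to 71.6) against 270 at P1, and 101 CPM (40.5 to 207) against 171 at P5. Lhx6 was at 316, 608 and 460.3 CPM against 433, 753 and 473, a ratio within 2-fold in each library.

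The study's long-range projection genes had 2 higher and 0 lower of 10 at E16.5, 2 and 2 of 9 at P1, and 1 and 0 of 5 at P5, with medians of 0.71, -0.30 (0.39 after matching) and 0.61. Its stress genes had 0 higher and 0, 1 and 0 lower of 11, 12 and 5.

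The maturation genes depended on depth matching. At E16.5, 20 of 126 compared were past 2-fold higher and 0 lower, with a median of 0.39, and against the depth-matched reference 0 were higher and 3 lower of 135, with a median of 0.04. At P1, 7 of 142 were higher and 5 lower with a median of 0.09, and after matching 3 and 13 of 146 with a median of -0.10. At P5 the median was -0.10. Migration and immaturity genes had 0 higher and 7 lower of 27 at E16.5, 0 and 5 of 27 at P1, and 0 and 0 of 16 at P5, and after matching 0 higher and 2 lower of 26 at E16.5 and 2 and 1 of 24 at P1. Sox4 and Sox11, transcription factors of young neurons, were at 559 and 1486 CPM against 1970 and 3648 at E16.5, and their log2 ratios of -1.82 and -1.30 became -0.73 and -0.45 after matching.

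Axon guidance and adhesion genes were split, with 12 higher and 6 lower of 53 at E16.5 (8 and 4 of 57 after matching), 6 and 8 of 52 at P1, and 0 and 2 of 15 at P5. Nrp2, Nlgn1, Pcdh9 and Pcdh11x were on the higher side at E16.5 and P1 (after matching Pcdh9 was under 2-fold at both and Pcdh11x at E16.5), and Sema3a, a repulsive guidance cue, on the lower side, with 63.2 CPM against 156 at E16.5 and 37.7 CPM against 228 at P1. Voltage-gated channels had 3 higher and 3 lower of 30 (0 and 2 of 32 after matching), 1 and 4 of 32, and 0 and 2 of 15. Kcnk2, a background potassium channel on the same list, was at 15.2 CPM (5.56 to 33.0) against 180.5 at E16.5, 25.2 CPM (9.23 to 54.8) against 140.3 at P1, and 158 CPM (79.0 to 283) against 139.9 at P5. Glutamate, GABA and acetylcholine receptors had 1 higher and 0 lower of 22, 1 and 3 of 27 (1 and 5 of 29 after matching), and 1 and 0 of 19. Gria3, an AMPA receptor subunit, was at 286 CPM (235 to 343) against 118 at E16.5 and 411 CPM (334 to 501) against 179 at P1, and 216 CPM (121 to 356) against 171 at P5. Its E16.5 ratio went from 1.27 to 0.34 after matching.

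**Figure D4:**
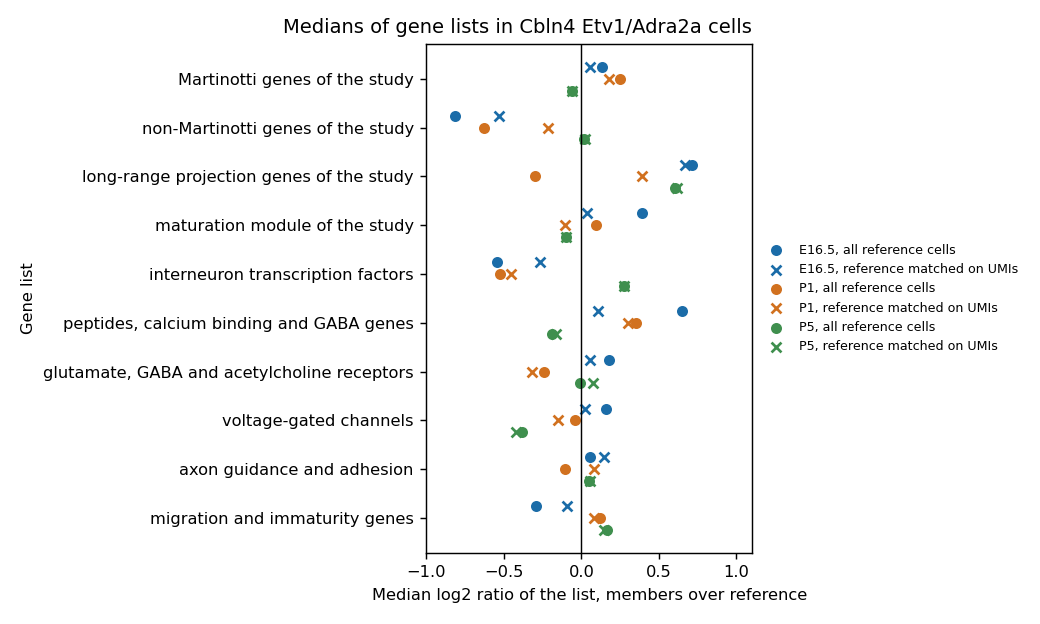
Median log2 ratio of 10 gene lists, Cbln4 Etv1/Adra2a cells over the reference, by stage (circles), and against the depth-matched reference (crosses). The circle of the maturation module at E16.5 is at 0.39 and its cross at 0.04, and the non-Martinotti list stays left of 0 at E16.5 and P1 by either reading.

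The families of the rule genes were mostly at few UMIs. Besides Cbln4, Cbln2 had 16 UMIs at E16.5 (40.4 CPM, 23.1 to 65.7, against 8.76), in 6 of 29 cells, with a log2 ratio of 2.09 that turned to -0.07 without cells above the 95th percentile of UMIs. It had 0 UMIs at P1 and P5, where 3 UMIs would be 12.6 and 43.2 CPM. Cbln1 had 1, 3 and 1 UMIs, and Cbln3 had 0. Nrxn2 and Nrxn3, neurexins that bind cerebellins from the presynaptic side, were within 2-fold of the reference: Nrxn2 at 551, 910 and 964 CPM against 502, 872 and 1054, and Nrxn3 at 781, 1644 and 949 against 1105, 1624 and 954. Over the other adrenergic receptors the cells held 3, 3 and 4 UMIs in all, and the 4 at P5 were from Adra1a. Of the ETS and FGF-MAPK feedback genes, 6, 4 and 1 reached the minimum, with 1 higher and 2 lower at E16.5 and none past 2-fold at P1 and P5, and 1 higher and 1 lower of 4 at both E16.5 and P1 after matching.

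Of the peptide, calcium-binding and GABA genes, 0 were past 2-fold higher and 2 of 12, 3 of 9 and 4 of 9 lower from E16.5 to P1, P1 to P5 and E16.5 to P5, beside 8.37%, 7.04% and 12.0% of all genes compared in these cells. Sst went from 7797 CPM (7524 to 8077) at E16.5 through 2247 CPM (2061 to 2446) to 892 CPM (684 to 1143) by P5, with intervals that do not overlap, against 2717, 1550 and 1457 CPM in the reference. The cells thus stood above the reference at E16.5 and P1 and under it at P5, with log2 ratios of 1.52, 0.54 and -0.71, and of 1.02, 0.39 and -0.67 after depth matching. At P5, 35 of the 62 Sst UMIs came from the deepest cell, and without it the level was 471 CPM (310 to 685) and the log2 ratio -1.63. Npy, the gene of neuropeptide Y, was at 2838 CPM (2675 to 3009), 1719 CPM (1557 to 1894) and 1295 CPM (1041 to 1591) against 1444, 1328 and 851. Its log2 ratio at P1, 0.37, was 1.34 after matching and -0.19 without cells above the 95th percentile of UMIs. Cort, the gene of the somatostatin relative cortistatin, was at 222 CPM (178 to 274) against 64.1 at E16.5, 126 CPM (84.9 to 180) against 176 at P1, and 14.4 CPM (0.364 to 80.2) from 1 UMI against 566 at P5. In the reference Cort rose over the 3 libraries while in these cells it fell. Without cells above the 95th percentile of UMIs the E16.5 ratio of Cort turned from 1.78 to -0.52, and after depth matching it was 0.21.

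Maf, Mef2c and Zeb2 were among the most abundant members of the interneuron transcription factor list. Maf was at 356 CPM (300 to 420) against 644 at E16.5, 1862 CPM (1692 to 2043) against 1774 at P1, and 1439 CPM (1170 to 1750) against 546 at P5, with log2 ratios of -0.85, 0.07 and 1.40. After depth matching these were 0.10, 0.89 and 1.40, so Maf was not under the reference at E16.5 then. Mef2c was at 399 CPM (339 to 467) against 996, 943 CPM (824 to 1075) against 2382, and 1784 CPM (1484 to 2127) against 1469. Zeb2 was at 184 CPM (145 to 232) against 1005, 759 CPM (652 to 878) against 1480, and 834 CPM (634 to 1079) against 704. Mef2c and Zeb2 were thus under the reference at E16.5 and P1. At E16.5 both were also low in Cbln4 cells without Etv1 and Adra2a, at 322 and 180 CPM. At P5 the reference level of Mef2c lay just under the cells' interval and that of Zeb2 within it. After depth matching the log2 ratios at E16.5 and P1 were -0.93 and -0.71 for Mef2c, from -1.32 and -1.34, and -1.41 and -0.41 for Zeb2, from -2.44 and -0.96.

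**Figure D5:**
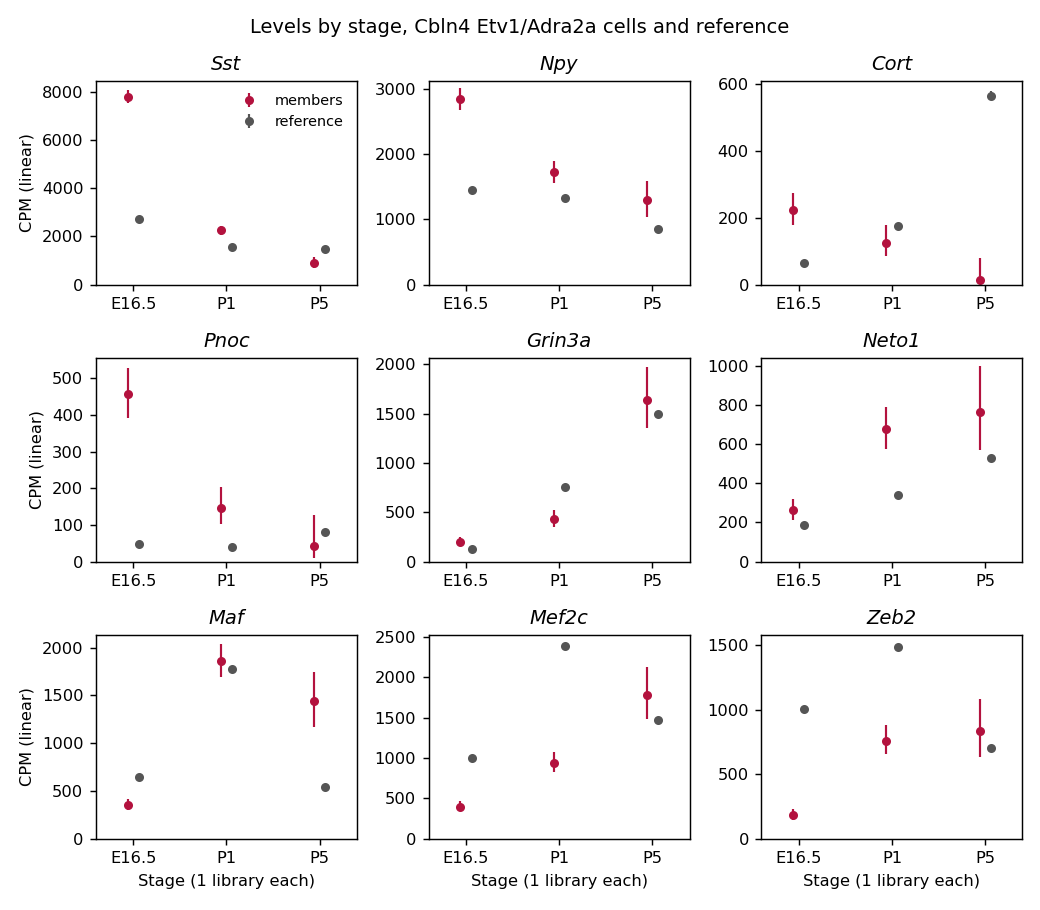
Level in CPM (linear axis from 0) of 9 genes by stage in Cbln4 Etv1/Adra2a cells (red) and the reference (grey), with exact Poisson 95% intervals, 1 library per stage. Sst in the cells falls from 7797 to 892 CPM and ends under the reference, Cort falls to 14.4 CPM while the reference reaches 566, and Maf ends at 1439 CPM against 546.

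Between stages within these cells, the libraries differed at many genes. From E16.5 to P1, 525 of 4443 genes were past 2-fold higher (11.8%) and 372 lower (8.37%), from P1 to P5 185 of 1393 higher (13.3%) and 98 lower (7.04%), and from E16.5 to P5 238 of 1353 higher (17.6%) and 162 lower (12.0%). In the reference the same steps gave 11.5% higher and 3.42% lower of 12541 genes, 8.86% and 10.8% of 12923, and 19.2% and 12.7% of 13137. The median of all genes was 0.09, 0.13 and 0.09 in the cells. Of the study's maturation genes, 69 of 132 were past 2-fold higher from E16.5 to P1, 21 of 111 from P1 to P5, and 64 of 100 from E16.5 to P5, with 1, 2 and 0 lower. In the reference, where more UMIs let all 159 be compared, the numbers were 111, 61 and 155. Of the Martinotti genes, 16 of 25, 6 of 22 and 11 of 18 were higher, with 0, 1 and 0 lower.

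The 8 genes that rose most in both steps were Synpr, Lgals1, Adcy2, Grin2d, Eno2, B230209E15Rik, Akap13 and Id2. Synpr, a synaptic vesicle protein, had 0 UMIs at E16.5 and 46.1 CPM (23.0 to 82.5) at P1. It reached 403 CPM (268 to 582) by P5, in 7 of 14 cells, against 4.23, 62.3 and 218 CPM in the reference. Eno2, the neuronal enolase, was at 10.1, 29.4 and 230 CPM against 12.4, 36.0 and 146. For Lgals1 all 17 UMIs at P5 and for Id2 all 9 UMIs at P5 came from 1 cell. The 8 that fell most, Tshz2, Scp2, Hnrnpf, Cntn5, Sar1b, Mrpl32, Eef1e1 and Fos, were at 129 to 174 CPM at E16.5 and had 0 UMIs at P5, where 3 UMIs are 43.2 CPM.

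Cells of nearby types were compared last. Cells with Cbln4 but neither Etv1 nor Adra2a (58, 56 and 32 cells, median 7122, 4734 and 4006.5 UMIs) were the nearest. Against them 200 of 5975 genes were higher (3.35%) and 273 lower (4.57%) at E16.5, 176 (3.82%) and 138 (3.0%) of 4602 at P1, and 26 (1.85%) and 23 (1.64%) of 1402 at P5. With these cells weighted over 5 bins in the same way, the total went from 473 to 99 genes at E16.5 and from 49 to 13 at P5. Sst was alike in both groups at E16.5 (7797 against 7217 CPM), with ratios of 0.11, 0.26 and -0.34 over the stages, so the level of Sst above the reference was shared by the other Cbln4 cells. Npy was lower in the Etv1/Adra2a cells in each library, at 2838 against 6137 CPM, 1719 against 2195, and 1295 against 3395, and none of these pairs of intervals overlap. At E16.5 Zeb2 (184 against 180 CPM), Mef2c (399 against 322), Erbb4 (101 against 115) and Npas1 (5.05 against 14.4) had overlapping intervals. At P1 these genes were lower in the Etv1/Adra2a cells, at 759 against 1279, 943 against 2159, 46.1 against 180 and 8.39 against 82.0 CPM. Maf was at 1862 against 2683 CPM at P1 and 1439 against 1423 at P5. Sp9 was at 2.53 CPM against 195 at E16.5. Ildr2, a membrane protein of the immunoglobulin family, was higher in the Etv1/Adra2a cells, at 83.4 CPM (57.4 to 117) against 28.9 (14.9 to 50.4), 197 CPM (145 to 262) against 88.6 (58.4 to 129), and 187 CPM (99.6 to 320) against 86.0 (45.8 to 147). The intervals overlap at P5. Of genes above the reference, Olfm3 had overlapping intervals in each library, at 20.2 against 12.0, 147 against 82.0 and 216 against 179 CPM. So did Fam84a, at 45.5 against 12.0, 130 against 68.9 and 158 against 66.2. Homer2 was apart at E16.5 (187 against 64.9), Lingo1 at P1 (189 against 88.6) and Epha5 at E16.5 and P1. Their other intervals overlapped, with Lingo1 at 187 against 199 and Epha5 at 978 against 1046 at P5.

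Cells with Myh8 (29 at P1 and 141 at P5) and with Pdyn (27 and 390) are the other somatostatin groups the rule set apart, and the E16.5 library held only 2 and 10 of them. Against Myh8 cells, 167 of 4609 genes were higher (3.62%) and 231 lower (5.01%) at P1, and 53 (3.8%) and 65 (4.66%) of 1394 at P5. Olfm3 was at 147 CPM (102 to 204) against 0 UMIs at P1, where 3 UMIs are 8.89 CPM in the Myh8 cells, and 216 CPM (121 to 356) against 3.56 (0.735 to 10.4) at P5. Npy was at 1719 against 284 and 1295 against 667 CPM, Maf at 1862 against 554 and 1439 against 249 CPM, and Epha5 at 1203 against 332 and 978 against 406 CPM. Lower than in Myh8 cells were Npas1, at 8.39 against 198 and 28.8 against 266 CPM, Nr2f2, a nuclear receptor of caudal interneurons, at 235 against 521 and 43.2 against 509, and Satb1, at 440 against 1259 and 316 against 842.

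Against Pdyn cells, 183 of 4184 genes were higher (4.37%) and 199 lower (4.76%) at P1, and 30 (2.18%) and 36 (2.62%) of 1376 at P5. With Pdyn cells weighted over 5 bins in the same way, the total at P1 went from 382 to 861 genes. That weighting split only 27 Pdyn cells into the 5 bins. Reln was at 373 CPM (300 to 459) against 908 (784 to 1046) at P1 and 360 CPM (233 to 531) against 919 (880 to 961) at P5, and Satb1 at 440 against 989 and 316 against 867. Npas1 was at 8.39 against 213 and 28.8 against 204 CPM. Fam19a2, a secreted chemokine-like protein, was at 96.4 CPM (61.1 to 145) against 4.73 (0.120 to 26.4) at P1 and 57.5 CPM (15.7 to 147) against 5.97 (3.18 to 10.2) at P5. The intervals of these 4 genes do not overlap within either library. Of the Martinotti genes, 6 of 28 were past 2-fold higher and 9 lower against Myh8 cells at P1 and 4 and 8 of 24 at P5, and 5 and 11 of 29 and 1 and 4 of 24 against Pdyn cells. Against Cbln4 cells without Etv1 and Adra2a, 8 of 25 were higher and 2 lower at E16.5, beside 3.35% and 4.57% of all genes. At P1 the counts were 3 and 1 of 27, and at P5 0 and 0 of 21. The medians were 0.37, 0.16 and 0.12. At E16.5 Reln (80.9 against 31.3 CPM), Elfn1 (278 against 101) and Neto1 (263 against 108) had intervals apart. At P1 and P5 those intervals overlapped. None of this was depth-matched.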

How the data were processed

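The authors deposited raw UMI counts per gene and cell for 3 libraries, made with Cell Ranger and its STAR aligner on GRCm38. From these counts, cells were chosen by the stated rule, UMIs were summed per group and scaled to CPM, and log2 ratios took a pseudocount of 1 CPM. Genes with under 10 UMIs on average over both groups were left out, and a ratio past 2-fold was called. With 1 library per stage no test was made. Multiplets were not called, and an alternative left out cells above the 95th percentile of UMIs. The ratio and calling steps were tested on simulated data. Python 3.11.15, numpy 2.4.6, scipy 1.17.1 and pandas 2.3.3 were used. Depth was 25638779, 15654107 and 13429055 UMIs per library, and intervals cover counting error only.

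Named genes were the rule genes, list genes past 2-fold in all 3 libraries, the 15 and 10 genes with the most extreme ratio over all libraries at 20 CPM or more, the 8 with the largest rise and fall between stages, the 8 whose ratio moved most, the highest genes of each list, the 5 leading genes against each nearby type, and the cerebellin and adrenergic genes. The minimum of 20 CPM applied to the cells of the rule for the 15 and to the reference for the 10. Nrp2, Erbb4, Reln, Elfn1, Kcnk2, Sema3a, Thsd7a, Gria3, Tshz3, Nfib, Sox4, Pnoc and the genes listed for E16.5 and P1 together were named after their values were seen. The cells and lists were chosen with earlier results of these data known. Alternatives changed the pseudocount, scaling, count minimum, cell filters, reference and rule. Gene coordinates are of GRCm38. Some items are not reported here.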

Additional observations from a re-analysis of the deposited data

How the results depend on the processing

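Of 164 values of comparisons under alternatives, 112 stayed within the set limits and 52 moved, and of 2470 ratios of named genes 2177 stayed, 285 moved and 8 changed sign. The share of cells at E16.5, P1 and P5 was 0.111%, 0.328% and 0.123% when thinned, 0.202%, 0.520% and 0.0671% with at least 2 Cbln4 UMIs, 0.453% at E16.5 without cells above the 95th percentile of UMIs, and 0.149% at P1 with over 1000 genes and under 5% mitochondrial UMIs. Genes past 2-fold against the reference numbered 429, 255 and 62. With at least 3 UMIs they were 1147, 1019 and 550, and with at least 40 they were 99, 36 and 1. At E16.5 they were 155 with depth matching, 227 with the strict filter and 180 without the deepest cells, and at P1 456 by the mean of per-cell CPM and 122 without the deepest cells. Against Cbln4 cells without Etv1 and Adra2a, at least 3 UMIs gave 1369, 1335 and 730 and at least 40 gave 69, 17 and 1. At E16.5 depth matching gave 99, the strict filter 223 and leaving out the deepest cells 127. At P1 the mean of per-cell CPM gave 589, at least 2 Cbln4 UMIs 201 and leaving out the deepest cells 152, and at P5 the mean gave 95 and depth matching 13. Against Myh8 cells at least 3 UMIs gave 1555 and 750, at least 40 gave 65 and 9, and at least 2 Cbln4 UMIs gave 257 at P1. Against Pdyn cells at least 3 UMIs gave 1465 and 576, at least 40 gave 41 and 4, and the mean of per-cell CPM 682 and 100. There depth matching gave 861 and leaving out the deepest cells 243 at P1. Between stages at least 3 UMIs gave 2087, 1235 and 1465 and at least 40 gave 218, 46 and 55 for P1 over E16.5, P5 over P1 and P5 over E16.5. The count minimum changes how many genes are compared. For the other settings the cause was not tested. Without the deepest cells the log2 ratio changed sign to -3.61 for Mthfd2, -0.52 for Cort and -0.0729 for Cbln2 at E16.5, to -0.0234 for Lhfp and -2.58 for Lgals1 at P1, and to -6.48 for Lgals1 at P5, where leaving out only the deepest cell, chosen after seeing the data, gave -6.64. With at least 2 Cbln4 UMIs Col25a1 at P1 was -0.0613.

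No paired analysis was possible because each stage was 1 library. Settings that left under 10 cells were not run for ratios: at least 2 Cbln4 UMIs at E16.5 and P5, the strict filter at P1 and P5, and cells with a Sst UMI at P5. With 69514 UMIs over 14 cells at P5, 3 UMIs are 43.2 CPM, so genes under this level were not detectable there.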
